A study of Mus musculus with 5 samples.

Results

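The collagen genes are the protein-coding mouse genes whose symbols have the form Col, a type number, the letter a and a chain number, such as Col1a1, and 44 of the 21938 nuclear protein-coding genes of the GENCODE M21 annotation met this rule. They were examined in ChIP-seq with an antibody to H3K27me3, a histone mark in which lysine 27 of histone H3 carries a triple methyl group, in molar tissue of wildtype C57BL/6 mice at postnatal day 3. All libraries came from mesenchyme left after the dental epithelium was taken away. The H3K27me3 antibody gave 2 libraries, chromatin that had not been immunoprecipitated (input) gave 2 more, and a nonspecific IgG antibody gave 1, and no mutant or treated group was part of the data. The libraries are labelled as separate samples, but nothing says that they came from separate animals, so an SD given here measures the spread between 2 libraries, which may be technical.

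Collagens are triple-helical proteins of the extracellular matrix. Fibrillar collagens such as type I form the ropes of dentin, bone and ligament, fibril-associated collagens coat those ropes, type IV chains build the sheets of basement membranes, and type VI chains form beaded filaments around cells. In a tooth at this age, odontoblasts deposit a dentin matrix made mainly of type I collagen, while the pulp and the future periodontal ligament also contain types III, V, VI and XII. Cartilage is built on types II, IX, X and XI, which are not typical products of the dental mesenchyme. H3K27me3 is placed by Polycomb repressive complex 2, whose methyltransferase can be Ezh2, and it typically lies over the promoters of developmental genes that a cell keeps silent. The comparison made here therefore asks which collagen genes lay under called H3K27me3 peaks, and in which replicates.

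A peak is a stretch of genome where the authors' peak caller found more H3K27me3 tags than in the control. Peaks were deposited for replicate 1 against its input, for the same replicate 1 library against IgG, and for replicate 2 against its input. Replicate 1 had 30369351 tags after duplicate removal and replicate 2 had 49947919, with controls of 23688420 to 51681224 tags. These gave 22757 peaks in replicate 1, 24881 with the IgG control and 33379 in replicate 2. Both lists of replicate 1 share the same H3K27me3 library and count as 1 sample. The Hox genes are a family held silent by Polycomb in many tissues. They had a promoter peak in both replicates at 24 of 39 genes (61.5%, beside 1.04% of all protein-coding genes). Peak lists hold no expression, so the labelled tissue could not be checked from transcripts. Of 8 dental mesenchyme marker genes, 2 had a promoter peak in replicate 1 (beside 3.87% of all genes) and 3 in replicate 2 (beside 4.16%). Pax9, a transcription factor of the dental mesenchyme, had one in both (beside 1.04%). With the IgG control 2 of the 8 had one (beside 4.52%), and Pax9 was not among them. Of 6 epithelial marker genes, 2 had one in replicate 1, 2 with the IgG control and 0 in replicate 2.

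No collagen gene had a peak within 1 kb of its 5′ end in both replicates. In replicate 1 such a peak lay at Col2a1, Col13a1 and Col14a1, which is 3 of 44 genes (6.82%, 95% Wilson interval 2.35% to 18.2%), beside 3.87% of all protein-coding genes. In replicate 2 it lay at Col10a1 and Col15a1, which is 2 of 44 (4.55%, interval 1.26% to 15.1%), beside 4.16% of all genes. The mean was 2.5 ± 0.707 genes (SD, n = 2). With the IgG control, replicate 1 had 3 genes, Col2a1, Col14a1 and Col15a1, beside 4.52% of all genes. The count of 0 of 44 in both replicates has an upper Wilson bound of 8.03%, 3 counts of 44 would be 6.82%, and the share of all genes was 1.04%, which a count of 0 among 44 genes cannot be told apart from. These intervals cover counting error only and treat genes as independent.

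The DNA under such peaks and at a collagen promoter without one is shown for 4 genes, to let the CpG content be seen, since CpG-rich promoters are the usual sites of Polycomb. Each sequence is from GRCm38 and is read 5′ to 3′ on the strand of the gene, with every CG dinucleotide in capitals. The Col15a1 peak of replicate 2 (chr4:47207518-47207752, plus strand) is the one collagen peak that a replicate 1 peak overlapped, and only with the IgG control. The Col13a1 peak is from replicate 1 (chr10:61979928-61980128, minus strand) and the Col10a1 peak from replicate 2 (chr10:34390342-34390548, plus strand). The Col3a1 stretch is the 250 bases before the start of the RefSeq transcript (chr1:45311288-45311537, plus strand, GRCm38.p6), where no list had a peak.
Col15a1 peak: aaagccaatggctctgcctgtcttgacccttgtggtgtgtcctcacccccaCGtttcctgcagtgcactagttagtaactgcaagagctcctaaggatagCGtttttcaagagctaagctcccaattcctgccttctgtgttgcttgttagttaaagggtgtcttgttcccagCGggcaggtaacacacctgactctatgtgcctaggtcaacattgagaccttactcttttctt
Col13a1 peak: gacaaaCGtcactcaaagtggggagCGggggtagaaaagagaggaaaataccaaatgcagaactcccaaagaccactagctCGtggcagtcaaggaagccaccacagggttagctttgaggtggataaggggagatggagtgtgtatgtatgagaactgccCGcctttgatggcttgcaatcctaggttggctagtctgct
Col10a1 peak: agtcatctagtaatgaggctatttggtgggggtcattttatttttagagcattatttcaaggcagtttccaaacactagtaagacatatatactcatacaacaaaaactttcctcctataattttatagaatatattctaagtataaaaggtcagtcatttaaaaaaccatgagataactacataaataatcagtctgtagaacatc
Col3a1 promoter: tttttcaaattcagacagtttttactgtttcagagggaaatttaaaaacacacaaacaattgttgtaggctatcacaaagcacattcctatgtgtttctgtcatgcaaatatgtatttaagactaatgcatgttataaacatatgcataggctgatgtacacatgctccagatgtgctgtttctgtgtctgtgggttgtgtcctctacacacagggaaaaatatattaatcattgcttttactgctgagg

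The Col15a1 peak contained 3 CG dinucleotides and 48.5% G and C, and the Col13a1 peak contained 4 and 50.7%. The Col10a1 peak was AT-rich, with 0 CG dinucleotides and 29.5% G and C, and the Col3a1 promoter likewise held 0, with 35.2%. None of these 3 peaks thus lay on a dense run of CG dinucleotides. The replicate 1 promoter peaks of Col2a1 and Col14a1, whose sequences are not shown, held more. Col2a1 had 19 in 209 bases and Col14a1 had 12 in 269 bases.

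Col2a1, the chain of the type II collagen of cartilage (chr15:97975602-98004695, minus strand), had the replicate 1 promoter peak nearest to its 5′ end of all collagens. The peak began 31 bases inside the gene, in an exon, was 209 bases long and held 19 CG dinucleotides with 72.7% G and C. The IgG control gave an overlapping peak that began 57 bases inside. In replicate 2 no peak lay there, and the nearest was 1326 bases upstream, just outside the 1 kb window. At Col14a1, a fibril-associated collagen (chr15:55307750-55520803, plus strand), replicate 1 had 3 peaks 39, 1235 and 1617 bases inside the gene, and the IgG control had 2, at 44 and 1241. The nearest replicate 2 peak at Col14a1 was 37343 bases away. Col2a1 and Col14a1 thus had peaks over their first exon in replicate 1 with either control, and neither had one in replicate 2.

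At Col13a1, a transmembrane collagen, the replicate 1 peak lay 820 bases upstream, whereas the nearest peak was 50229 bases from the 5′ end with the IgG control and 35532 bases in replicate 2. Col15a1, a basement membrane-associated multiplexin (chr4:47208161-47313167, plus strand), had peaks 492 bases upstream with the IgG control and 409 bases upstream in replicate 2. These overlapped over 152 bases. Against input, the nearest replicate 1 peak lay 4335 bases upstream. Col10a1, the collagen of hypertrophic cartilage (chr10:34389981-34397085, plus strand), had its replicate 2 peak in an intron 361 bases inside the gene, in a region that also lies within Nt5dc1, and no replicate 1 peak within 38385 bases with either control. Of these 5 promoters, the peak of Col15a1 alone was called in both replicates, and only when IgG replaced the input.

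**Figure D1:**
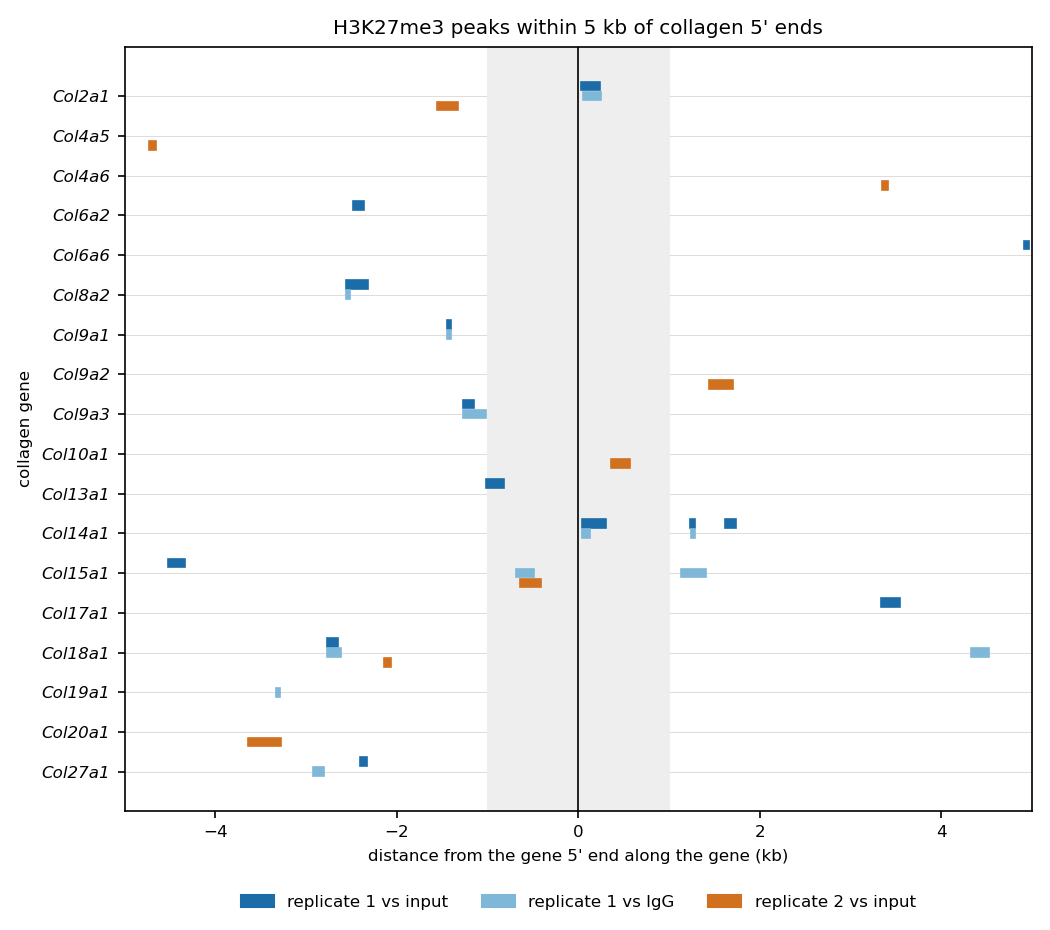
Position of each peak (bars, drawn to scale) within 5 kb of the 5′ end of 18 collagen genes, with distance in kb along the direction of the gene on the x axis, genes on the y axis and colours for the 3 peak lists; the shaded band is the 1 kb window. Inside the band, replicate 1 peaks lie at Col2a1, Col13a1 and Col14a1 and replicate 2 peaks at Col10a1 and Col15a1, and the other 26 collagen genes have no peak within 5 kb of the 5′ end.

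Some collagens, both of cartilage and other, had peaks just outside the 1 kb window. Col9a3, a chain of type IX, had a replicate 1 peak 1154 bases upstream, or 1019 with the IgG control. Col9a1 had one 1404 bases upstream with either control, and Col9a2 had a replicate 2 peak 1445 bases inside the gene. Each of these type IX peaks was called in 1 replicate only. The cartilage chains Col11a1 and Col11a2 had no peak within 5 kb of the 5′ end in any list. Outside cartilage, Col14a1 had replicate 1 peaks 1235 and 1617 bases inside the gene. Col15a1 had one 1131 bases inside with the IgG control. Within 5 kb of the 5′ end, 12 of 44 collagen genes had a peak in replicate 1 (beside 11.7% of all genes), 9 with the IgG control (12.5%) and 8 in replicate 2 (13.2%). Col2a1, Col15a1 and Col18a1 had one in both replicates, which is 3 of 44 beside 4.31% of all genes. At Col18a1, the source of endostatin, these peaks lay 2648 bases upstream in replicate 1 and 2066 in replicate 2, separated by 511 bases. A window of 2 kb gave 1 gene with a peak in both replicates, Col2a1 (beside 2.28% of all genes). Replacing input by IgG for replicate 1 also gave 1, Col15a1 (beside 1.29%). The 5′ ends of all annotated transcripts gave 1, Col14a1 (beside 1.56%), where each replicate could match a different 5′ end. Its replicate 1 peaks lay 39 to 1617 bases inside the gene and the nearest replicate 2 peak 37343 bases inside. No single 5′ end of Col14a1 thus had peaks of both replicates within 1 kb.

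Over the whole locus, meaning the gene and 5 kb beyond either end, most collagen genes held at least 1 peak. This was so for 32 of 44 genes in replicate 1 (72.7%, beside 25% of all protein-coding genes), 26 with the IgG control (59.1%, beside 25.9%) and 35 in replicate 2 (79.5%, beside 35.7%), a mean of 33.5 ± 2.12 genes against input (SD, n = 2). Both replicates had a peak in 25 collagen loci (56.8%, beside 15.7%). A further 7 loci had a peak in replicate 1 only and 10 in replicate 2 only. Col1a1 and Col6a1 had none in any list. Collagen genes were long, with a median of 114 kb and a range of 7.11 to 468.4 kb, beside a median of 17.4 kb for all genes, and longer loci offer more room for a peak. Among genes of at least 50 kb, 23 of 29 collagen genes had a peak in replicate 1 (79.3%, beside 50.6% of all genes of that length), 20 with the IgG control (69%, beside 51.2%), 27 in replicate 2 (93.1%, beside 73.2%) and 21 in both replicates (72.4%, beside 42%). Lengths within that class still differed, so these shares were not matched on length.

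Per base, collagen loci and all protein-coding loci had similar peak cover. The 44 loci joined into 40 stretches of 5.78 Mb, with 56 peaks in replicate 1, 52 with the IgG control and 89 in replicate 2. Peaks covered 0.110% of these bases in replicate 1, 0.110% with the IgG control and 0.317% in replicate 2, a mean of 0.214% ± 0.146 against input (SD, n = 2). All protein-coding loci had 0.142%, 0.159% and 0.273% in the same order, a mean of 0.207% ± 0.0931. Collagen loci were therefore lower than all loci in replicate 1 and higher in replicate 2, and the difference of the means was smaller than the spread between replicates. The number of peaks per Mb was 9.70 in replicate 1 and 15.4 in replicate 2 for collagens (12.6 ± 4.04), and 10.3 and 13.9 for all genes (12.1 ± 2.53). At the Hox genes the cover was 12.8% and 10.3%.

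**Figure D2:**
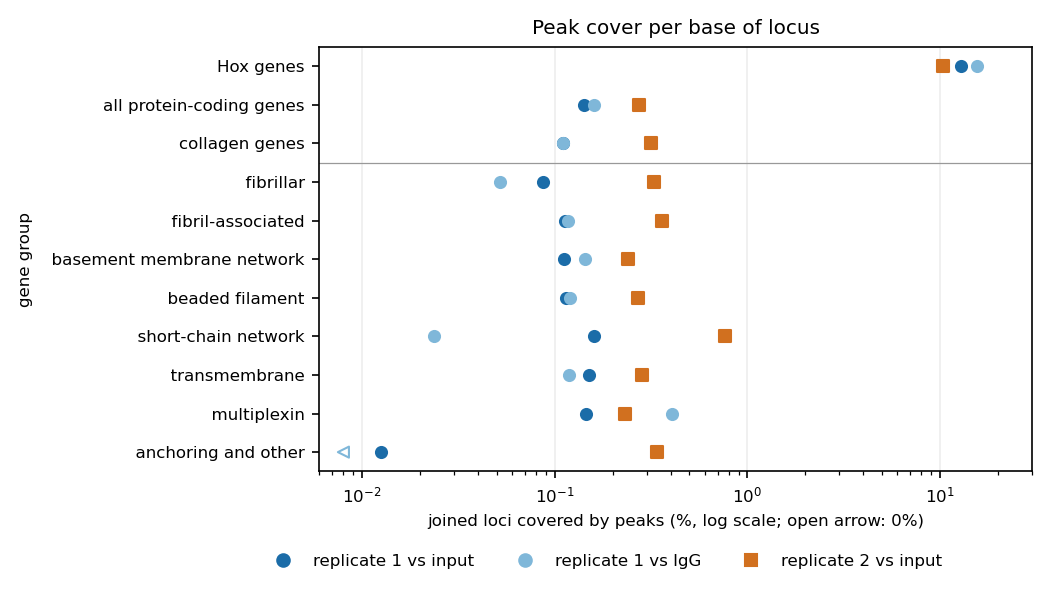
Percent of joined loci covered by peaks (x axis, log scale) for Hox genes, all protein-coding genes, all collagen genes and the 8 collagen classes (y axis), with 1 point for each peak list. Collagen points of 0.110% (replicate 1 against input, hidden behind the IgG point) and 0.317% lie next to those of all protein-coding genes at 0.142% and 0.273%, and Hox points lie above 10%; within the collagens replicate 2 exceeds replicate 1 against input in every class.

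The number of peaks in a collagen locus went with its length. Across the 44 genes, Spearman's rho between locus length and number of peaks was 0.387 in replicate 1, 0.257 with the IgG control and 0.704 in replicate 2; the genes share their libraries and are not replicates. The longest gene, Col25a1, a transmembrane collagen of neurons and muscle, had the most peaks in replicate 1 and in replicate 2, with 7 and 9, and 6 with the IgG control. Col4a3 stood above the mean density in replicate 1, with 5 peaks in a gene of 135.1 kb. Col6a6, a gene of 140.4 kb, had 4 peaks in replicate 1 against input and 0 in replicate 2. With the IgG control Col6a6 had 1 peak, which overlapped none of those 4. Col25a1, Col6a6 and other collagens outside the naming rule were chosen after their values were seen.

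**Figure D3:**
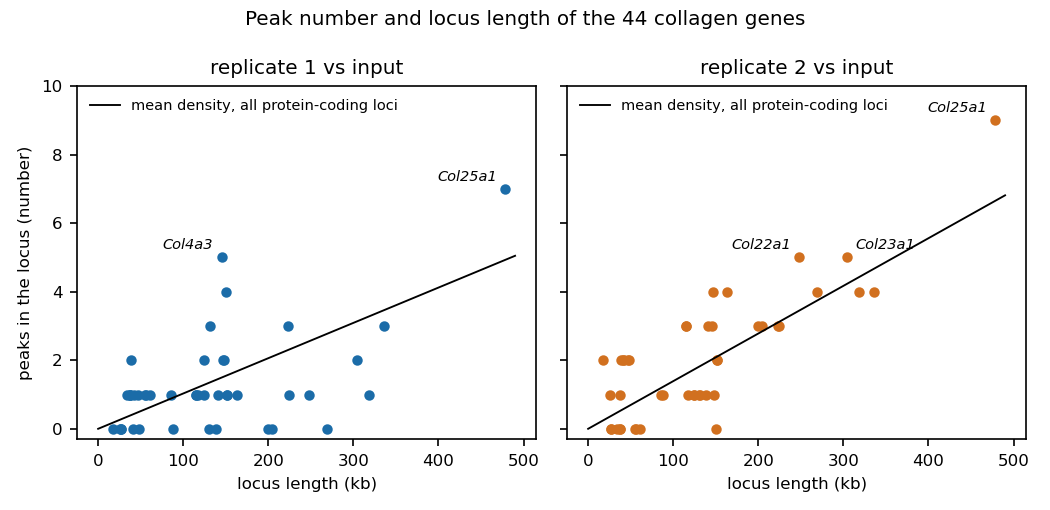
Number of peaks in each of the 44 collagen loci (y axis) against locus length in kb (x axis) for replicate 1 (left) and replicate 2 (right), with a line at the mean peak density of all protein-coding loci. Points lie on both sides of the line, and Col25a1 has the highest number in both replicates, 7 and 9.

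The 9 collagens of dental and other mesenchymal matrix (Col1a1, Col1a2, Col3a1, Col5a1, Col5a2, Col6a1, Col6a2, Col6a3 and Col12a1) had 0 promoter peaks in each list, beside 3.87% of all genes in replicate 1, 4.52% with the IgG control and 4.16% in replicate 2. With 9 genes, a count of 0 cannot be told apart from such shares. Their loci had peaks at 3 genes in replicate 1 (beside 25%), 3 with the IgG control (25.9%), 7 in replicate 2 (35.7%) and 3 in both replicates (15.7%). The shares of all genes were not matched to these loci on length. Col1a1, which encodes the main chain of dentin collagen (chr11:94936224-94953042, plus strand), had its nearest peak 26715 bases from the 5′ end in replicate 1, 26719 with the IgG control and 97089 in replicate 2. No peak of any list touched its locus. Col1a2, the partner chain of Col1a1 (chr6:4504814-4541544, plus strand), had 0.306% of its locus covered in replicate 1, 0.327% with the IgG control and 0.702% in replicate 2, a mean of 0.504% ± 0.280 against input (SD, n = 2). All of its peaks lay deep in the gene, in an exon 29882 bases from the 5′ end in replicate 1, and in an exon at 23909 and an intron at 25473 bases in replicate 2. The 2 type I chains thus differed in locus cover, and neither had a peak within 13892 bases of its 5′ end.

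Col3a1, the single chain of type III collagen of pulp and ligament, had no peak in replicate 1 with either control. Its 2 replicate 2 peaks lay past the 3′ end of the gene, 39005 and 42105 bases from the 5′ end of a gene of 38.2 kb. Col5a1, whose chain regulates the diameter of type I fibrils, had 1 exonic peak in replicate 1, 0 with the IgG control and 4 in replicate 2, with a cover of 0.0282% and 0.581% against input. Its partner Col5a2 had 0 in replicate 1 with either control and 1 intronic peak in replicate 2. Col12a1, a fibril-associated collagen of ligament, had 0 peaks in replicate 1 against input, 3 with the IgG control and 1 in replicate 2. Col3a1, Col5a2 and Col12a1 were thus called in 1 replicate only when set against input.

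The chains of type VI collagen, the beaded filaments around cells, also differed. Col6a1 (chr10:76708792-76726168, minus strand) had no peak within 90945 bases of its 5′ end in replicate 1 or within 32333 bases in replicate 2. Col6a2 had 1 peak in each list, 2364 bases upstream of the 5′ end in replicate 1, 6048 bases inside with the IgG control and 8731 bases inside in replicate 2. Its cover was 0.301% in replicate 1 and 0.320% in replicate 2 (mean 0.310% ± 0.0131). Col6a3 had 0, 0 and 1 peak in the same order. Col6a5 had 1, 1 and 3, and its cover of 0.0751% in replicate 1 and 0.729% in replicate 2 was the widest difference between replicates among the 6 beaded filament genes. The cover of Col6a2 rested partly on the flank, since without flanks its mean was 0.217% ± 0.307. The means of Col6a2 and Col6a5 (0.402% ± 0.462) were not separated by their spread.

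The 7 cartilage collagens (Col2a1, Col9a1, Col9a2, Col9a3, Col10a1, Col11a1 and Col11a2) had promoter peaks at Col2a1 in replicate 1 (1 of 7, beside 3.87% of all genes) and Col10a1 in replicate 2 (1 of 7, beside 4.16%), and at no gene in both. Their loci had peaks at 4 genes in replicate 1 (beside 25%), 3 with the IgG control (25.9%), 5 in replicate 2 (35.7%) and 2 in both (15.7%), namely Col2a1 and Col9a1. Here too the shares of all genes were not matched on length. Col2a1 had the highest mean cover of the 25 collagens with a peak in both replicates, at 0.890% in replicate 1 and 0.939% in replicate 2 (mean 0.915% ± 0.0344). With the IgG control it was 0.491%. Its second pair of peaks lay in exons 5269 bases inside the gene in replicate 1 and 6238 bases inside in replicate 2, with 830 bases between them. The values of Col2a1 in both replicates were close with the 5 kb flanks, which hold the upstream replicate 2 peak, and came from peaks at different positions. Without the flanks its mean was 0.823% ± 0.527.

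Col10a1 went from 0% in replicate 1 to 2.82% in replicate 2, the highest value of any collagen in 1 list. The second of its 2 peaks lay 7831 bases from the 5′ end, past the end of a gene of 7.1 kb. Col11a1, a chain of type XI, had 0 peaks in replicate 1 and 3 intronic peaks in replicate 2, whereas Col11a2 had 1 in replicate 1, downstream of the gene, and 0 in replicate 2. Col9a1 had 1 peak in each list, at 1404 bases upstream in both replicate 1 lists and 18859 bases inside the gene in replicate 2. Its cover was 0.0541% and 0.167% against input. Of the cartilage collagens, Col9a2, Col9a3, Col10a1, Col11a1 and Col11a2 thus had a peak in 1 replicate only against input.

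All 6 type IV genes, whose chains form the network of basement membranes, had a peak in each of the 3 lists, and none had one within 1 kb of its 5′ end. They are genes of 114.4 to 308.7 kb, and of all genes of at least 50 kb, 50.6%, 51.2% and 73.2% had a peak in replicate 1, with the IgG control and in replicate 2. They stand in 3 head-to-head pairs, with 5′ ends 21 bases apart for Col4a1 and Col4a2, 72 for Col4a3 and Col4a4, and 1309 for Col4a5 and Col4a6, so that the promoter windows of a pair overlap. The nearest replicate 1 peak to the Col4a1 5′ end was 36759 bases away, and the nearest replicate 2 peak was 18178 bases away. For Col4a3 these distances were 13535 and 15644 bases. The replicate 2 peak nearest to the 5′ ends of Col4a5 and Col4a6 lay 4655 bases upstream of Col4a5, in an intron 3346 bases inside Col4a6. Cover at Col4a3 was 0.4995% in replicate 1, 0.551% with the IgG control and 0.462% in replicate 2 (mean 0.481% ± 0.0268 against input). Of its 5 replicate 1 peaks, 3 lay in exons near the 3′ end or beyond it, from 133813 bases on, and within 5 kb of the next gene, Mff. At Col4a1 the cover was 0.0370% and 0.0571%, and at Col4a2 it was 0.110% and 0.384%. The 3 shared promoter regions therefore had no peak in any list, and the type IV peaks lay farther into the genes or past them.

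Of the other collagens fixed for naming, Col7a1, the anchoring fibril collagen under epithelia, had 0 peaks in replicate 1 with either control and 2 in replicate 2, with a cover of 0.872%. Most of that cover came from 1 peak downstream of the gene, within 5 kb of Ucn2 and Pfkfb4. Its mean was 0.436% ± 0.617 with flanks and 0.113% ± 0.160 without them. Col17a1, a transmembrane collagen of epithelial hemidesmosomes, had 1 peak in replicate 1, 3333 bases inside the gene, 0 with the IgG control and 0 in replicate 2. Col20a1, a fibril-associated collagen, came second to Col2a1 in mean cover among the 25 genes called in both replicates, at 0.182% in replicate 1 and 1.04% in replicate 2 (mean 0.612% ± 0.609). Most of the replicate 2 cover came from 1 peak 3273 bases upstream, within 5 kb of Arfgap1. The mean was 0.231% ± 0.0111 without flanks, and 0.176% ± 0.00845 when replicate 2 was limited to as many peaks as replicate 1. Col8a1, a short-chain network collagen of vessels and cornea, had 0.0527% and 0.715%, with a mean of 0.384% ± 0.469 that was 0.167% ± 0.162 at equal peak numbers. Col22a1, a collagen of tissue junctions, had 0.0370% and 0.545%. Against input, Col15a1 had 0.159% and 0.418%, all of it in the flanks, since its mean cover without them was 0%. With the IgG control its cover was 0.532%, which included intronic peaks 1131 and 5310 bases inside the gene. How far the replicates differed at a gene thus depended on the setting. At equal peak numbers, Col4a3 had a mean of 0.374% ± 0.177 and Col6a2 one of 0.151% ± 0.213, both with a wider spread than with all peaks.

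Across the 44 genes the cover was higher in replicate 2 at 32, higher in replicate 1 at 10 and 0 in both at 2. The median was 0.0746% in replicate 1 and 0.269% in replicate 2. Replicate 2 was also the deeper library with longer tags (74 bases against 49). Its modelled fragment length was longer too (71 bases against 46), and these lengths were also the shortest peak lengths of the lists. The part of depth, tag length, fragment length and library in the higher cover of replicate 2 cannot be told apart. By class, joined cover ranged from 0.0126% (anchoring and other collagens) to 0.160% (short-chain network) in replicate 1, and from 0.231% (multiplexins) to 0.762% (short-chain network) in replicate 2. The fibrillar class had 0.0870% and 0.328% (mean 0.208% ± 0.171), the fibril-associated class 0.113% and 0.361% (0.237% ± 0.175), the basement membrane class 0.112% and 0.240% (0.176% ± 0.0903), and the beaded filament class 0.114% and 0.271% (0.192% ± 0.111). Means of these 4 classes differed by less than the spread between replicates.

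**Figure D4:**
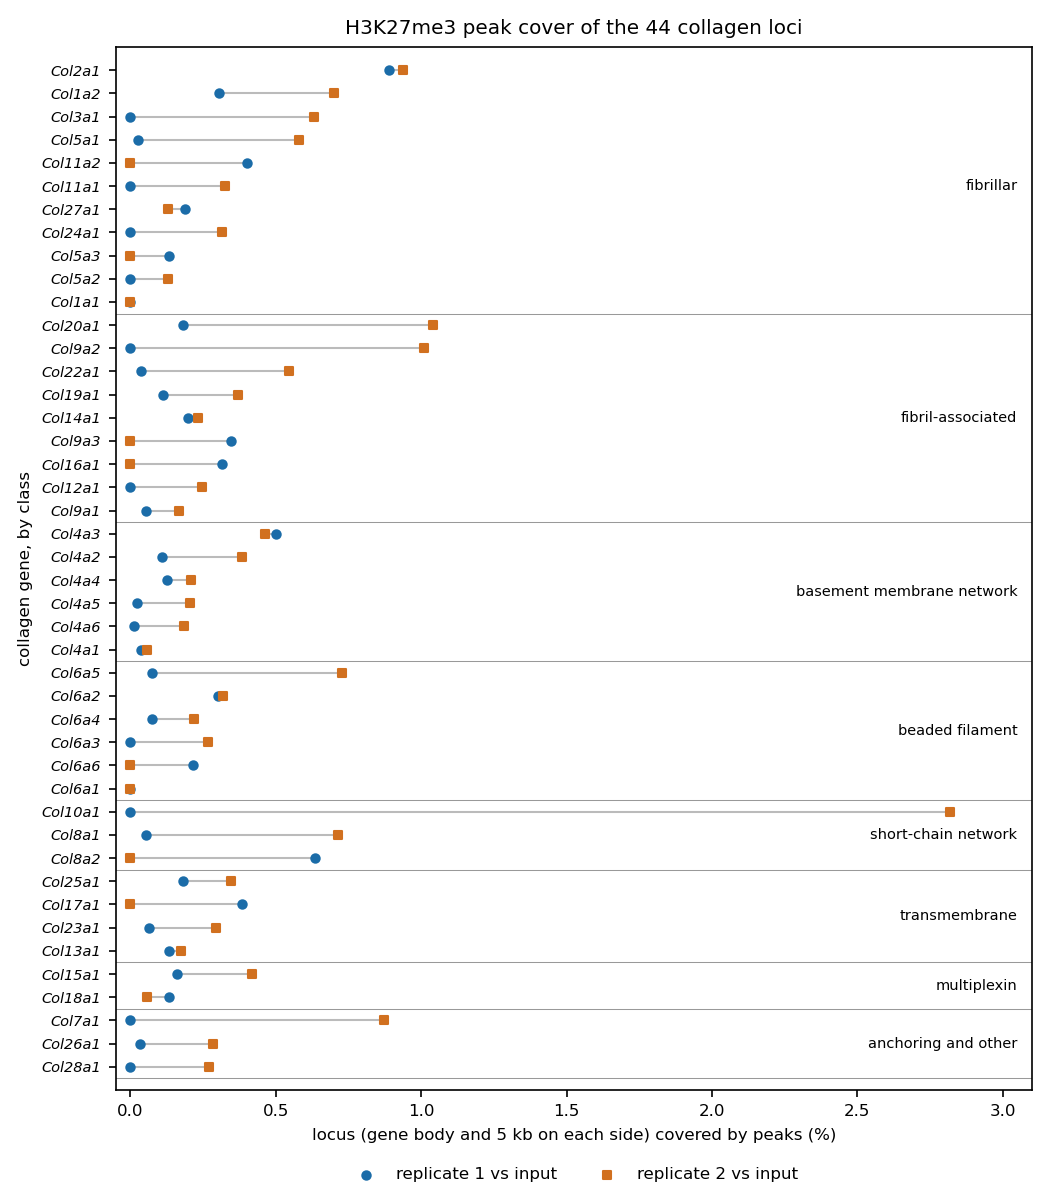
Percent of each collagen locus covered by peaks (x axis) in replicate 1 (circles) and replicate 2 (squares), with genes on the y axis grouped by class and a line joining both values. Col10a1 runs from 0% to 2.82%, Col2a1 has values of 0.890% and 0.939%, and Col1a1 and Col6a1 lie at 0 in both replicates.

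Replicates were then compared peak by peak. Of the 56 replicate 1 peaks in collagen loci, 0 were overlapped by a replicate 2 peak (upper Wilson bound 6.42%), beside 2.85% of all replicate 1 peaks, and of the 89 replicate 2 peaks, 0 were overlapped by a replicate 1 peak (upper bound 4.14%), beside 1.90%. Both overall shares lie below the bounds, so 0 was not detectable as different from them. A replicate 2 peak lay within 1 kb of 2 of the 56 (3.57%, beside 12.7% of all replicate 1 peaks), at Col18a1 and Col2a1, and within 5 kb of 10 (17.9%, beside 31.8%). Both lists of replicate 1, which share the H3K27me3 library, had more positions in common. Of the 56 peaks, 30 were overlapped by a peak of the IgG list (53.6%, interval 40.7% to 66.0%), beside 51.0% of all replicate 1 peaks, and those 30 were 57.7% of the 52 IgG-list peaks. In each of the 25 loci with a peak in both replicates against input, the peaks of the replicates thus lay at different places.

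At the median, peaks in collagen loci were like other peaks of their lists in size and height. The median length was 107 bases in replicate 1 and 200 bases in replicate 2, beside 119 and 181 bases for all peaks. Height is the mean depth of tags over a peak, not the number of tags in it. The deposited heights of replicate 1 were scaled down to its smaller control (median 3.12). With that scaling undone, the median height was 4 tags in replicate 1 and 6.15 tags in replicate 2, beside 4.09 and 6.16 for all peaks. The deposited fold enrichment over the control, a ratio with a pseudocount of 1, was 2.6 at the median for replicate 1 peaks and 2.44 for those of replicate 2. The medians for all peaks were 2.63 and 2.45. The highest values were 3.4 and 3.0 in collagen loci, beside 4.48 and 7.58 over all peaks. The highest deposited heights were 4.39 and 7.68 in collagen loci, beside 38.18 and 115.5 over all peaks. The lowest height that a list contains was found for 51.8% of collagen peaks in replicate 1 and 42.7% in replicate 2, beside 44.5% and 37.9% of all peaks. Each single collagen peak therefore had a low tag depth, and its position is subject to counting error.

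Most peaks in collagen loci were intronic. Of the 56 peaks in replicate 1, 35 lay in introns, 10 touched exons, 8 were upstream and 3 downstream of the gene, and of the 89 in replicate 2, 64 lay in introns, 15 touched exons, 4 were upstream and 6 downstream. Introns made up 86.9% of the locus bases, exons 6.03% and flanks 7.11%. Per base, peaks covered 0.345% of exons, 0.0751% of introns and 0.340% of flanks in replicate 1, and 0.525%, 0.288% and 0.492% in replicate 2. With the IgG control these were 0.436%, 0.0754% and 0.255%. Exons and flanks thus had higher cover than introns in each list. Within 1 kb of collagen 5′ ends the cover was 0.790% in replicate 1, 0.572% with the IgG control and 0.530% in replicate 2, beside 0.348%, 0.441% and 0.474% around all protein-coding 5′ ends. These values rest on peaks at 2 or 3 genes in each list. The median G and C content of collagen peaks was 48.7% in replicate 1 and 46.0% in replicate 2, beside 46.4% and 45.1% for all peaks.

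Collagen promoters were poorer in CG dinucleotides than those of other genes. The ratio of observed to expected CG within 1 kb of the 5′ end had a median of 0.369 over the 44 genes, with a range of 0.0564 to 0.817, beside 0.474 over all protein-coding genes. Split at that overall median, 14 collagen promoters (31.8%) were CpG-rich. All 3 promoter peaks of replicate 1 were at CpG-rich promoters (21.4% of 14), as were the 3 with the IgG control, whereas replicate 2 had 1 in each class, Col15a1 among the 14 and Col10a1 among the 30. Among all protein-coding genes the shares were 4.75% of CpG-rich and 3.00% of CpG-poor promoters in replicate 1, and 5.03% and 3.28% in replicate 2. The type I and type III genes were in the CpG-poor class, with ratios of 0.307 for Col1a1, 0.315 for Col1a2 and 0.154 for Col3a1.

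Promoter peaks were also counted at the genes around collagen synthesis and at collagen receptors. Of 33 genes for the enzymes and chaperones that modify, fold, process and cross-link collagen, 1 had a promoter peak in replicate 1 (3.03%, beside 3.87% of all genes), 1 with the IgG control (3.03%, beside 4.52%) and 0 in replicate 2 (beside 4.16%). The first was Colgalt2, which adds galactose to hydroxylysine, and the second was Lox, the cross-linking lysyl oxidase. These 2 genes were named after their values were seen. Their loci had peaks at 8 genes in replicate 1 (24.2%, beside 25%), 7 with the IgG control (21.2%, beside 25.9%), 15 in replicate 2 (45.5%, beside 35.7%) and 6 in both (18.2%, beside 15.7%). Of 10 collagen receptor genes, such as integrin chains and discoidin receptors, 0 had a promoter peak in any list, which with 10 genes cannot be told apart from the shares of all genes. Their loci had peaks at 3 genes in replicate 1 (30%, beside 25%), 5 with the IgG control (50%, beside 25.9%), 5 in replicate 2 (50%, beside 35.7%) and 2 in both (20%, beside 15.7%). The locus shares of synthesis and receptor genes were not matched on gene length. Of all genes of at least 50 kb, 50.6%, 51.2%, 73.2% and 42% had a peak in the same order. No promoter of the collagens, of their synthesis genes or of their receptors thus had a peak in both replicates against input.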

How the data were processed

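The authors aligned reads to GRCm38 with BWA, kept uniquely mapped reads, and called broad peaks in each library with MACS 2.1.1.20160309 at a p-value cutoff of 0.005, without pooling. Per the file headers, modelled fragment lengths were 46 bases in replicate 1 and 71 in replicate 2. The deposited pileup is a signal in scaled tags, the deposited fold enrichment is a ratio with a pseudocount of 1, and p-values and q-values were deposited as −log10, of which the q-values were not used.

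Peaks were set against GENCODE M21 genes (Python 3.11.15, pandas 2.3.3, pysam 0.24.0) with an overlap of at least 1 base, after a check on simulated intervals. Peaks on mitochondrial DNA were left out of gene comparisons. With 2 libraries of 1 group no test was made. RefSeq promoter sequences (GRCm38.p6) matched 35 of 44 collagen genes. Genes were named if they had a promoter peak in any list, were among the 10 with the highest mean cover and a peak in both replicates, had a peak overlapped between replicates, or belonged to a set of dental, cartilage, basement membrane and epithelial collagens. The members and lists were chosen with earlier results of these data known. Promoter window, locus flanks, peak thresholds, the control and single replicates were varied.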

Additional observations from a re-analysis of the deposited data

How the results depend on the processing

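Stricter peak thresholds moved most counts. At a fold enrichment of 3 or higher, 9 replicate 1 peaks remained in collagen loci, loci with a peak in both replicates fell to 0, the mean number of loci to 4.5, promoters to a mean of 0, cover to 0.00691%, peaks per Mb to 0.779 and peaks overlapped by the IgG list to 4. At a p-value of 0.001 or lower these were 2 peaks, 2 loci, 6, 0, 0.01395%, 1.125 and 0. Promoters with a peak in both replicates numbered 1 (Col2a1) at 2 kb, beside 2.28% of all genes, and 3 at 5 kb, beside 4.31%, against 0 as reported. They numbered 1 (Col15a1) with the IgG control, beside 1.29%. With the 5′ ends of all transcripts they numbered 1 (Col14a1), beside 1.56%, where the peaks of the replicates lay near different 5′ ends. Mean promoter counts were 4.5 at 2 kb and 10 at 5 kb. Within 5 kb, 11.7% of all genes had a peak in replicate 1 and 13.2% in replicate 2. For single replicates at 2 kb this share was not computed. Replicate 1 peaks shared with replicate 2 numbered 1 with the IgG control and 2 within 1 kb. Leaving out 1 replicate gave 2 to 3 promoters, beside 4.16% and 3.87% of all genes. The cause of these changes was not tested, beyond fewer peaks or wider windows entering by construction. For the counts and cover over all collagens, another 55 values stayed within 1.5 times or 1 SD of those reported, and 22 moved beyond that. For the cover of single named genes, 170 values stayed within 1 SD and 38 moved, among them values of Col2a1, Col4a3, Col6a2, Col14a1 and Col15a1. With 2 libraries, cover or peaks per Mb with 1 replicate left out lies within 1 SD by construction. A gene with peaks in 1 replicate only has an SD above its mean, so a fall to 0 also counted as within 1 SD. Col10a1, at 1.41% ± 1.99, was such a gene, with 0% at a fold enrichment of 3 or higher. These tallies therefore do not measure how stable the values are. No paired analysis was possible because the results come from no test. Sequencing depth limits single peaks, most of which have a low height in tags.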
